A study of Homo sapiens and Mus musculus with 69 samples.

Results

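The 10 genes described here encode the NF-kB family and proteins that regulate it. They are the subunits NFKB1, NFKB2, RELA, RELB and REL, the inhibitory IkB proteins NFKBIA and NFKBIE, the atypical IkB protein NFKBIZ, and the feedback regulators TNFAIP3 and BIRC3. They were chosen by name as 10 of the 20516 gene rows measured in human small cell lung cancer (SCLC) lines, and as the 10 title-case mouse symbols among the 18501 rows of the mouse SCLC line KP1. Polyadenylated RNA was sequenced in 69 libraries, 3 for each of 23 groups, to ask how NOTCH1 signaling and inhibition of the histone demethylase LSD1 alter gene expression in neuroendocrine SCLC. Levels are log2(RPKM + 1), where RPKM is the read number scaled to transcript length and to library size. A difference is a difference of group means on that scale, which understates the change of genes expressed at a low level.

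H82, H524, H69 and COR-L88 are human SCLC lines, H82 and H524 of the NEUROD1 type. H82 gave 21 libraries in 7 groups: parental cells, and cells carrying a doxycycline-inducible vector for the NOTCH1 intracellular domain (N1ICD), its active form, grown without or with doxycycline on an intact, a REST knockout (KO) or a STING KO background. H524 gave 15 libraries in 5 groups: parental cells, the N1ICD vector without and with doxycycline, and an inducible vector for REST, a repressor of neuronal genes, without and with doxycycline. H69 gave 9 libraries in 3 groups: parental cells and the N1ICD vector without and with doxycycline. COR-L88 gave 15 libraries in 5 groups: intact cells with the vehicle DMSO, with the LSD1 inhibitor TAS1440, or with TAS1440 plus a gamma-secretase inhibitor (GSI), which blocks the cleavage that releases N1ICD from the Notch receptor, and STING KO cells with DMSO or TAS1440. KP1, a line from a mouse tumor lacking Rb1 and Trp53, gave 9 libraries in 3 groups: DMSO, TAS1440 and TAS1440 plus GSI. The GSI was BMS-708163 in COR-L88 and DBZ in KP1. Per the study's methods, after long induction only the cells that had become adherent were harvested, so the doxycycline groups are a selected part of each culture. The knockouts were made by CRISPR, and the study shows immunoblots of single-cell KO clones for REST and STING1 in H82 and STING1 in COR-L88. The labels do not say which clones were sequenced. A difference between clones cannot be told apart from an effect of the knockout. Nothing in the labels says that the 3 libraries of a group came from separate cultures, so the p-values measure the spread between these libraries, which may be technical.

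NF-kB proteins are held in the cytoplasm by IkB proteins. Signals from tumor necrosis factor receptors, Toll-like receptors or nucleic acid sensors activate IkB kinases, the IkB protein is destroyed and RELA with the p50 product of NFKB1 enters the nucleus. In a slower, noncanonical branch the kinase MAP3K14 drives the processing of NFKB2, whose product p52 pairs with RELB. Several of the genes that NF-kB activates shut the pathway down again. NFKBIA encodes IkB-alpha, which exports NF-kB from the nucleus, TNFAIP3 encodes the ubiquitin-editing enzyme A20, and BIRC3 encodes cIAP2, a ubiquitin ligase that acts at tumor necrosis factor receptors and helps to degrade MAP3K14. STING, encoded by STING1 (listed under its older symbol TMEM173), is an adaptor that signals from cytosolic DNA to interferon and NF-kB.

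The promoter sequences of the members are shown because this feedback depends on NF-kB sites beside the members' own start sites. RefSeq promoter sequences, 250 bases before and 50 after the start, were found for 8 of the 10 human genes. RELB and NFKBIE had no entry. The 10-base NF-kB consensus was searched on both strands, and 6 of the 8 promoters held it (NFKB1, REL, NFKBIA, NFKBIZ, TNFAIP3 and BIRC3), against 5.72% of the 27305 promoters of the same length. No match lay in the NFKB2 and RELA windows. The RefSeq starts can differ from the gene positions given below. The RELA window (chr11:65431279-65431578) lies wholly upstream of the RELA position given below, and the REL match lies inside the REL position. Each line gives 30 bases on the gene's strand, 5′ to 3′, with the match in capitals, its GRCh37 position and the distance of its first base from the RefSeq start. For NFKBIA, TNFAIP3 and BIRC3 the consensus reads on the opposite strand, so that the capitals are its reverse complement. The REL match is nearly a palindrome and was counted on both strands, 1 base apart.
NFKB1, chr4:103422457-103422486, 49 bases before the start: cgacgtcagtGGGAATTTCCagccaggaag
REL, chr2:61108652-61108681, 47 bases before the start: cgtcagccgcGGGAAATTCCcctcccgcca
NFKBIA, chr14:35874017-35874046, 81 bases before the start: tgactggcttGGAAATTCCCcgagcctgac
NFKBIZ, chr3:101546601-101546630, 223 bases before the start: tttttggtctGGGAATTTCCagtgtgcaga
TNFAIP3, chr6:138188319-138188348, 67 bases before the start: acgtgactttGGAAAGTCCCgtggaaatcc
TNFAIP3, chr6:138188331-138188360, 55 bases before the start: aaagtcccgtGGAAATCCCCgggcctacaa
BIRC3, chr11:102188006-102188035, 199 bases before the start: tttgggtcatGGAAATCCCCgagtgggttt
BIRC3, chr11:102188070-102188099, 135 bases before the start: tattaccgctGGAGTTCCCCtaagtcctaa
The core bound by RBPJ, the DNA-binding partner of N1ICD (TGGGAA, both strands), was present in the NFKB1, NFKB2, RELA and NFKBIZ promoters, and in 24.3% of all promoters. In NFKB1 and NFKBIZ it overlapped the NF-kB match, whose first bases it shares.
NFKB1, chr4:103422456-103422481, 50 bases before the start: tcgacgtcagTGGGAAtttccagcca
NFKBIZ, chr3:101546600-101546625, 224 bases before the start: ctttttggtcTGGGAAtttccagtgt
These are matches of letters, and binding was not measured.

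The labels were checked against the targeted genes. NOTCH1 levels were higher with doxycycline in every N1ICD line: 0.88 to 1.45 without and 4.26 to 5.56 with doxycycline in H82, 0.79 to 1.52 and 7.58 to 8.31 in H524, and 0.38 to 0.39 and 7.93 to 8.07 in H69. In H82 the induced level differed between backgrounds, at 8.75 to 10.74 in REST KO and 5.97 to 7.48 in STING KO cells. REST rose from 4.90 to 5.05 to 6.87 to 10.72 in the H524 REST line. In the H82 REST KO cells REST RNA was still present, at 3.99 to 4.20 without and 4.95 to 5.89 with doxycycline, against 4.42 to 4.80 and 6.13 to 6.48 in intact cells, and it rose with doxycycline in the KO as well (log2 difference 1.15, adjusted p = 0.00026). RNA does not settle the REST KO label, for which the study shows immunoblots of KO clones. The STING KO label could not be checked from RNA in H82 either, where TMEM173 lay at 1.27 to 2.04 in the induced KO and at 1.07 to 1.17 in the induced intact cells, since a CRISPR deletion of a few bases need not remove the transcript. In COR-L88 with TAS1440 it was 0.96 to 1.16 in the KO and 2.03 to 2.54 in intact cells. The mean of 7 neuroendocrine markers fell from 6.80 to 6.95 to 2.42 to 2.72 in H82, from 7.30 to 7.55 to 5.04 to 5.78 in H524, from 6.79 to 7.01 to 1.93 to 2.02 in H69, from 6.01 to 6.07 to 3.35 to 3.47 in COR-L88 and from 3.56 to 3.74 to 0.48 to 1.99 in KP1 (ranges over libraries). Of 5 leukocyte genes, the pan-leukocyte gene PTPRC was at most 0.38 in any library, and CD3E and LYZ stayed at or below 0.142 and 0.337 in the human ones, while CD14 and CD74 reached higher levels. The mean of the 5 was 0.13 to 0.30 without and 0.23 to 0.57 with doxycycline in H82, 0.55 to 0.82 and 0.95 to 1.06 in H524, 0.77 to 0.82 and 0.97 to 1.06 in H69, and 0.40 to 0.52 with DMSO and 0.43 to 0.77 with TAS1440 in COR-L88. CD14, a lipopolysaccharide co-receptor, rose with doxycycline in H69, from 3.00 to 3.55 to 4.74 to 4.88 (log2 difference 1.51, adjusted p = 4.47e-06), and fell by 0.91 with TAS1440 in COR-L88 (adjusted p = 0.0206). It differed by 0.52 in H82 and 0.87 in H524, which did not pass (adjusted p = 0.179 and 0.0919). CD74, the invariant chain of class II antigen presentation, was 0.00 to 0.25 with DMSO and 0.87 to 2.80 with TAS1440 in COR-L88, under the level filter used for testing. The part of these genes in the results below was not tested. The files give no counts, so depth is unknown. Mouse values were normalized separately and are set beside human ones only as differences. Summed RPKM had a lower median in the mouse libraries, 136744 against 1440076. With log2(RPKM + 1), a given fold change therefore tends to give a smaller difference in KP1, and the level filter is stricter there. Differences and numbers of genes tested are thus not on a like scale, and an untested mouse gene need not be silent.

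NOTCH1 activation and LSD1 inhibition were accompanied by higher RNA of most members tested in all 5 lines, and the members that moved differed by line. In H82, 7 of the 10 genes rose with doxycycline and 1 fell, at adjusted p under 0.05 in limma. There 50.3% of the 13903 genes tested passed in either direction and 25.4% were higher. In H524, 5 of the 9 genes tested rose and 0 fell, beside 32.3% of all genes passing and 17.9% higher. BIRC3 was under the level filter there (a level of 1 or more, reached by 3 or more libraries of that line). In H69, 7 of 9 rose and 1 fell, beside 82.3% of genes passing and 44.1% higher, so the share of members called was close to the share of all genes. NFKBIZ was under the filter in H69. In COR-L88, all 10 members rose with TAS1440, beside 57.7% of genes passing and 31.1% higher. Of all genes called there, 53.9% were higher as deposited and 41.7% with quantile normalization, and in H524 55.3% and 44.8%. In KP1, 4 of the 5 members tested rose with TAS1440, beside 36.7% of genes passing and 18.2% higher. Nfkb1, Relb, Rel, Tnfaip3 and Birc3 were under the KP1 filter, and the members that passed a filter on level are not a fair sample of the 10. Some passed it only with the N1ICD-induced or TAS1440-treated libraries and so were tested only where they were high: RELB, NFKBIZ and BIRC3 in H82, RELB and NFKBIZ in H524, REL and BIRC3 in H69, RELB, NFKBIE and BIRC3 in COR-L88, and Nfkb2, Nfkbie and Nfkbiz in KP1. This limit holds for every count of members in these lines, above and below, and for the medians of the members that follow. The median difference of the members was 0.95 in H82, 0.75 in H524, 0.65 in H69, 1.33 in COR-L88 and 0.98 in KP1, where the medians of all genes tested were -0.00, -0.02, 0.08, 0.01 and 0.02. Of the 108 calls made on members over 28 comparisons, 70 were kept under every other scaling, filter, pseudocount and model and without any 1 library. In at least 1 such setting 30 were lost, and 31 without at least 1 library, while 0 changed direction.

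**Figure D1:**
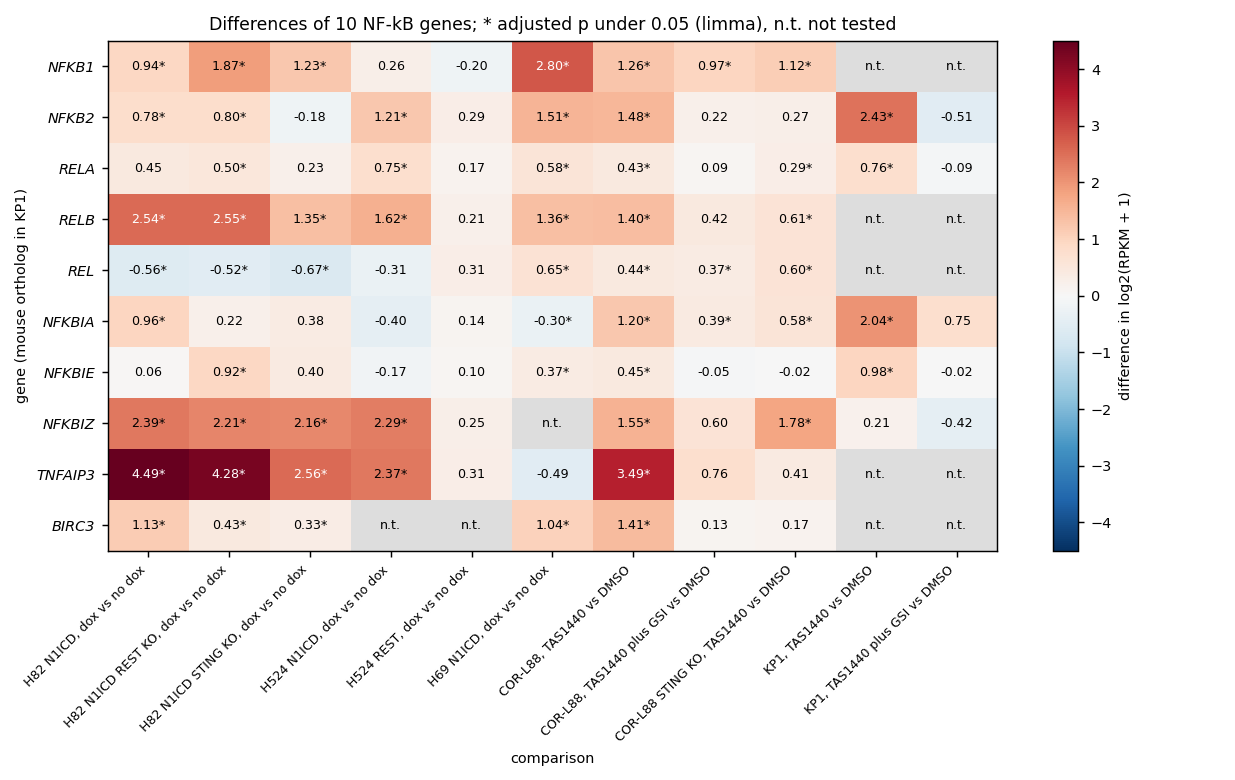
Difference of group means in log2(RPKM + 1) for each gene (rows) in 11 comparisons of induction or treatment (columns); red is higher and blue lower in the first-named group, stars mark adjusted p under 0.05 in limma, and grey cells were not tested. TNFAIP3 holds the largest values, 4.49 in H82, 4.28 in its REST KO and 3.49 in COR-L88, while REL is blue in the 3 H82 columns and red in H69 and COR-L88.

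RELB, the subunit of the noncanonical branch (chr19:45504719-45541450, plus strand, GRCh37), rose in each of the 4 human lines. In H82 the 3 libraries without doxycycline stood at 0.44, 0.38 and 0.68 and those with it at 3.05, 2.90 and 3.16. The groups did not overlap (log2 difference 2.54, SE 0.22, adjusted p = 4.04e-08). In H524 the levels were 0.26, 0.32 and 0.02 without and 1.60, 1.97 and 1.88 with doxycycline (log2 difference 1.62, SE 0.14, adjusted p = 8.42e-07). H69 started from a higher level, 1.52, 1.50 and 1.64, and reached 2.94, 2.84 and 2.98 (log2 difference 1.36, SE 0.13, adjusted p = 1.27e-05). In every induced library of these lines RELB was therefore above every uninduced library of the same line. In COR-L88 it was 0.36, 0.50 and 0.59 with DMSO and 2.55, 1.72 and 1.37 with TAS1440, a wider spread among the treated libraries (log2 difference 1.40, SE 0.22, adjusted p = 0.000132). In KP1 Relb (chr7:19606217-19629438, minus strand, GRCm38) read 0.19, 0.17 and 0.10 with DMSO and 1.36, 1.24 and 0.96 with TAS1440, below the filter but with no overlap between the groups.

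NFKB2, the p100/p52 precursor that pairs with RELB (chr10:104153867-104162281, plus strand), rose in H524, H69, COR-L88 and KP1, and less firmly in H82. In H82 it read 2.31, 3.37 and 3.15 without and 3.92, 3.45 and 3.79 with doxycycline (log2 difference 0.78, SE 0.27, adjusted p = 0.0232). The call was lost without library 4, 7 or 9, with an adjusted p of up to 0.138, and at an adjusted p of 0.0854 when only the compared groups were modeled. Library 4 was the low value of the uninduced group, and parental H82 cells spread as widely, at 3.24, 2.40 and 2.11. In H524 it moved from 0.23, 0.78 and 0.69 to 1.60, 1.86 and 1.85 (log2 difference 1.21, SE 0.19, adjusted p = 0.000257). In H69 it moved from 1.68, 2.02 and 1.96 to 3.49, 3.39 and 3.32 (log2 difference 1.51, SE 0.10, adjusted p = 1.1e-06). In COR-L88 it moved from 0.77, 0.74 and 0.87 to 2.68, 2.19 and 1.95 (log2 difference 1.48, SE 0.18, adjusted p = 1.11e-05). The groups did not overlap in any of the human lines, though in H82 the gap was narrow, from 3.37 to 3.45. In KP1 Nfkb2 (chr19:46304320-46312385, plus strand) had the largest difference of the 5 members tested. It read 1.17, 1.12 and 0.99 with DMSO and 3.65, 3.93 and 2.98 with TAS1440 (log2 difference 2.43, SE 0.22, adjusted p = 3.45e-05).

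NFKB1, which encodes the p105/p50 partner of RELA (chr4:103422487-103538459, plus strand), had the largest difference of the members tested in H69. Its levels there were 1.08, 1.30 and 1.31 without and 3.99, 4.03 and 4.05 with doxycycline, or a mean of 1.35 and 15.3 RPKM (log2 difference 2.80, SE 0.09, adjusted p = 9.61e-09). In COR-L88 it rose from 2.46, 2.23 and 2.25 to 3.74, 3.53 and 3.46 (log2 difference 1.26, SE 0.12, adjusted p = 1.22e-06). In H82 it rose from 2.99, 2.19 and 2.13 to 3.54, 3.13 and 3.44 (log2 difference 0.94, SE 0.21, adjusted p = 0.00115). Uninduced library 4 was the closest of its group to the induced values, and parental H82 cells read 3.13, 2.68 and 3.08. H524 did not show a difference that passed: 2.51, 1.46 and 2.76 without and 2.26, 2.66 and 2.59 with doxycycline gave 0.26, with a 95% interval of -0.31 to 0.82. Library 23 of the uninduced group, at 1.46, was the low value.

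RELA, the main transactivating subunit (chr11:65421070-65430561, minus strand), had the narrowest range of all members over the 60 human libraries, from 3.09 to 4.75. It was also the most abundant subunit per length in every human group summarized below. Its increases were small. In H69 it went from 4.15, 3.94 and 4.06 to 4.60, 4.64 and 4.65 (log2 difference 0.58, SE 0.07, adjusted p = 6.83e-05). In H524 it went from 3.69, 3.66 and 3.50 to 4.25, 4.42 and 4.42 (log2 difference 0.75, SE 0.17, adjusted p = 0.00361). In COR-L88 it went from 4.27, 4.13 and 4.37 to 4.61, 4.75 and 4.72 (log2 difference 0.43, SE 0.09, adjusted p = 0.00116). In each of these lines the groups did not overlap. In H82 it read 3.54, 3.66 and 3.64 and 4.26, 3.81 and 4.12, also without overlap. The difference of 0.45 did not pass (adjusted p = 0.0729). Without induced library 8, the lowest of its group, it was 0.57 at an adjusted p of 0.0374. In KP1 Rela read 2.81, 2.74 and 2.61 with DMSO and 3.81, 3.70 and 2.93 with TAS1440 (log2 difference 0.76, SE 0.22, adjusted p = 0.025). That call was lost without library 1, 2, 3, 4 or 5, at an adjusted p of up to 0.0806, and treated library 6 was far below the other two of its group.

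REL, which encodes c-Rel (chr2:61108626-61158747, plus strand), was called in opposite directions in different lines, as was NFKBIA, described below. In H82 it read 1.97, 1.88 and 1.91 without and 1.45, 1.23 and 1.38 with doxycycline, a fall without overlap (log2 difference -0.56, SE 0.11, adjusted p = 0.000384). In H69 it rose from 0.68, 0.57 and 0.53 to 1.16, 1.28 and 1.30 (log2 difference 0.65, SE 0.08, adjusted p = 9.4e-05). In COR-L88 it rose from 1.06, 1.13 and 1.03 to 1.62, 1.55 and 1.37 (log2 difference 0.44, SE 0.13, adjusted p = 0.01), a call that was lost with quantile normalization or median-centred libraries (adjusted p up to 0.153). In H524 the difference was -0.31 and did not pass (adjusted p = 0.31), from 1.54, 1.43 and 1.53 to 1.23, 1.18 and 1.17. The lines were normalized together but fitted separately, and the difference in direction between H82 and H69 was not tested.

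Per length, the make-up of the 5 subunit transcripts shifted. Shares here are of the summed RPKM of NFKB1, NFKB2, RELA, RELB and REL in a library (mean ± SD, n = 3), and are given without a test. In H82 the sum went from 26.1 ± 1.32 RPKM without to 46.4 ± 6.97 RPKM with doxycycline, RELB from 1.61% ± 0.627 to 15.7% ± 1.45 of it and REL from 10.7% ± 0.990 to 3.38% ± 0.103. In H524 the sum went from 17.8 ± 1.60 to 30.5 ± 2.90 RPKM and the RELB share from 0.889% ± 0.750 to 8.29% ± 0.786. In H69 the sum went from 22.1 ± 0.841 to 56.6 ± 0.463 RPKM, the NFKB1 share from 6.10% ± 1.04 to 27.0% ± 0.553, NFKB2 from 12.3% ± 2.39 to 16.9% ± 1.23, RELB from 8.76% ± 0.544 to 11.6% ± 0.618 and RELA from 70.5% ± 3.42 to 42.1% ± 0.555. In COR-L88 the sum went from 24.4 ± 1.74 to 44.6 ± 3.31 RPKM and the RELA share from 74.5% ± 1.60 to 56.1% ± 6.63. In KP1 the sum went from 7.19 ± 0.670 to 24.4 ± 7.69 RPKM, with Nfkb2 going from 15.7% ± 0.436 to 44.5% ± 3.76, and with GSI the sum was 6.09 ± 0.556 RPKM and the Nfkb2 share 8.04% ± 1.69. RELA was a smaller part of a larger sum in 4 of the 5 lines, the exception being H524, where its share was 63.6% ± 8.52 before and 64.2% ± 1.80 after.

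**Figure D2:**
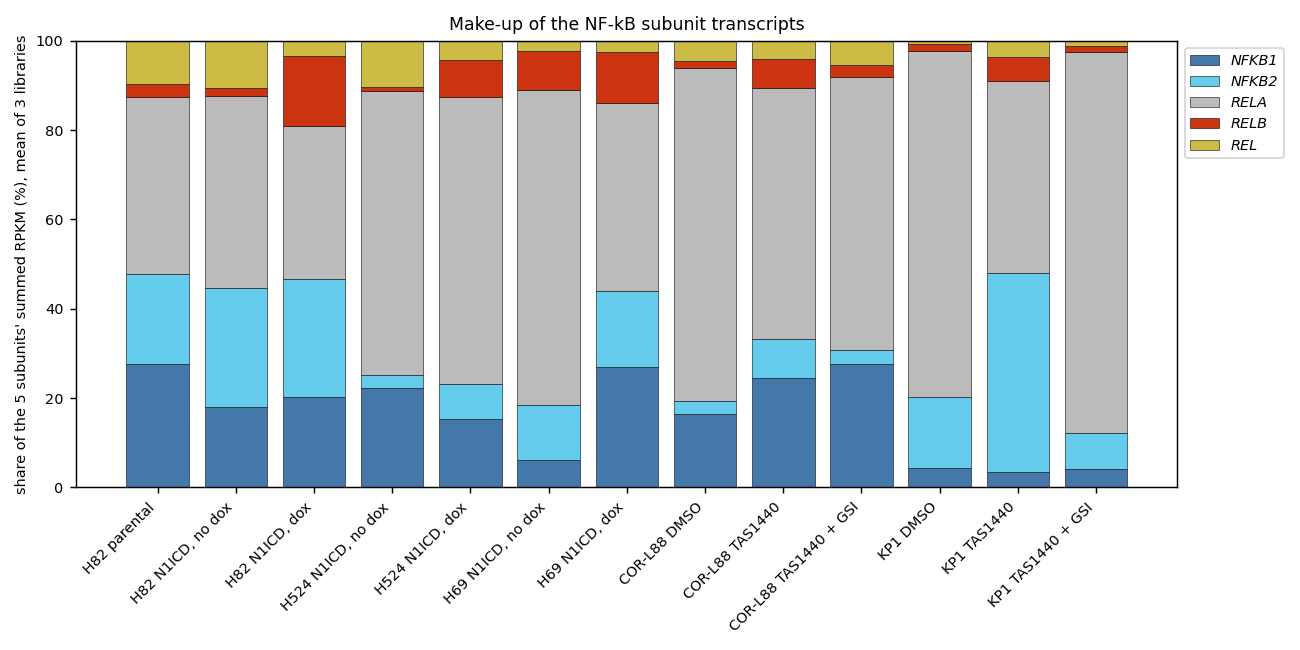
Stacked shares (percent, mean of 3 libraries) of NFKB1, NFKB2, RELA, RELB and REL in their summed RPKM, for 13 groups of 5 lines. The red RELB segment grows to 15.7% ± 1.45 with doxycycline in H82, the dark blue NFKB1 segment to 27.0% ± 0.553 in H69, and the light blue Nfkb2 segment to 44.5% ± 3.76 with TAS1440 in KP1.

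NFKBIA, the IkB-alpha gene and a standard readout of the canonical branch (chr14:35870285-35873955, minus strand), did not follow 1 pattern. It rose with TAS1440 in COR-L88, from 4.26, 4.15 and 4.09 to 5.54, 5.28 and 5.29 (log2 difference 1.20, SE 0.11, adjusted p = 6.25e-07). In KP1 Nfkbia (chr12:55489410-55492647, minus strand) rose from 1.97, 2.07 and 1.69 to 3.64, 4.06 and 4.15 (log2 difference 2.04, SE 0.19, adjusted p = 4.58e-05). Neither pair of groups overlapped. In H82 it read 4.20, 3.93 and 3.55 and 5.09, 4.65 and 4.81 (log2 difference 0.96, SE 0.34, adjusted p = 0.0246), and the call was lost without library 6, 7 or 9 (adjusted p up to 0.102). In H69 it was lower with doxycycline, 5.38, 5.10 and 5.37 against 4.95, 4.97 and 5.02 (log2 difference -0.30, SE 0.11, adjusted p = 0.0334). That call was lost without library 49, 51, 52, 53 or 54, at an adjusted p of up to 0.1. In H524 the difference was -0.40, with a 95% interval of -1.09 to 0.30, and did not pass. All 60 human libraries held at least 3.32 of it.

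NFKBIE, which encodes IkB-epsilon (chr6:44225903-44233525, minus strand), passed in H69, COR-L88 and KP1 and not in H82 or H524. In H82 it read 2.73, 2.78 and 2.69 and 3.00, 2.40 and 2.98 (difference 0.06, 95% interval -0.43 to 0.54), and in H524 the difference was -0.17 (-0.52 to 0.18). In H69 it rose from 2.42, 2.17 and 2.20 to 2.54, 2.64 and 2.74 (log2 difference 0.37, SE 0.10, adjusted p = 0.00686). In COR-L88 it rose from 1.06, 0.86 and 0.74 to 1.46, 1.34 and 1.22 (log2 difference 0.45, SE 0.15, adjusted p = 0.0221). The COR-L88 call was lost without library 11, 12, 13 or 14 (adjusted p up to 0.0836) and under quantile normalization or median-centring (adjusted p up to 0.299). In KP1 Nfkbie (chr17:45555703-45563169, plus strand) rose from 0.51, 0.50 and 0.31 to 1.47, 1.34 and 1.45 (log2 difference 0.98, SE 0.11, adjusted p = 0.000104).

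NFKBIZ encodes IkB-zeta, an atypical nuclear IkB protein that assists transcription of secondary NF-kB targets (chr3:101546835-101579866, plus strand). It rose strongly in both NEUROD1-type lines. In H82 it went from 0.41, 0.39 and 0.25 to 2.19, 2.93 and 3.09 (log2 difference 2.39, SE 0.21, adjusted p = 3.5e-08). In H524 it went from 1.11, 0.89 and 0.45 to 3.20, 3.23 and 2.89, reaching the highest group mean of the 20 human groups (log2 difference 2.29, SE 0.17, adjusted p = 2.32e-07). In COR-L88 it went from 1.77, 1.38 and 1.18 to 3.37, 2.86 and 2.75 (log2 difference 1.55, SE 0.31, adjusted p = 0.000826). No group overlapped its control. In H69 it was below the filter throughout, at 0.27, 0.41 and 0.29 in parental cells, 0.60, 0.86 and 0.81 without and 0.93, 0.76 and 0.73 with doxycycline. In KP1 Nfkbiz read 1.11, 1.05 and 0.58 and 1.27, 1.32 and 0.77, and the difference of 0.21 did not pass (adjusted p = 0.43).

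TNFAIP3, the A20 gene (chr6:138188351-138204451, plus strand), had the widest range of any member, from 0.79 to 6.45 over the human libraries. In H82 the 3 uninduced libraries read 0.79, 1.16 and 0.94 and the 3 induced ones 5.85, 5.01 and 5.50, or a mean of 0.960 and 44.1 RPKM (log2 difference 4.49, SE 0.37, adjusted p = 1.79e-08). In H524 it rose from 1.94, 1.58 and 1.41 to 3.69, 4.40 and 3.94 (log2 difference 2.37, SE 0.28, adjusted p = 1.8e-05). In COR-L88 it rose from 1.45, 1.51 and 1.29 to 6.10, 5.20 and 3.41 (log2 difference 3.49, SE 0.53, adjusted p = 8.7e-05). The treated COR-L88 libraries spread widely, with an SD of 1.37, yet the lowest of them was above every DMSO library. In H69 the level was not higher with doxycycline. It had the highest TNFAIP3 level of all groups while parental, 5.68, 5.94 and 6.45, was at 4.77, 4.25 and 5.08 with the uninduced vector and at 4.16, 4.15 and 4.32 with doxycycline. The difference with doxycycline of -0.49 did not pass (adjusted p = 0.0809). It passed with quantile normalization (-0.58, adjusted p = 0.0454) and without library 50 (-0.72, adjusted p = 0.0141). In KP1 Tnfaip3 was below the filter, at 0.14, 0.09 and 0.26 with DMSO and 0.57, 1.97 and 0.93 with TAS1440.

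BIRC3, the cIAP2 gene (chr11:102188215-102210134, plus strand), was at most 0.25 in every parental, uninduced and DMSO-treated human library and was higher in the induced or treated libraries of 3 human lines. In each of them it reached the level filter only through those libraries, so a test was possible only where it was high. With no filter the differences also passed (adjusted p = 3.74e-08 in H82, 4.29e-07 in H69 and 0.000142 in COR-L88). In H82 it went from 0.03, 0.14 and 0.17 to 1.24, 1.47 and 1.00 (log2 difference 1.13, SE 0.12, adjusted p = 3.33e-07). In H69 it went from 0.08, 0.03 and 0.02 to 1.01, 1.11 and 1.13 (log2 difference 1.04, SE 0.07, adjusted p = 8.87e-07). In COR-L88 it went from 0.14, 0.11 and 0.09 to 2.18, 1.37 and 1.01 (log2 difference 1.41, SE 0.21, adjusted p = 7.42e-05). In H524 it read 0.15, 0.07 and 0.07 with doxycycline, against 0.03, 0.08 and 0.01 without. Where BIRC3 was detected, its mean was still only 1.38 RPKM in H82, 1.12 in H69 and 2.04 in COR-L88.

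**Figure D3:**
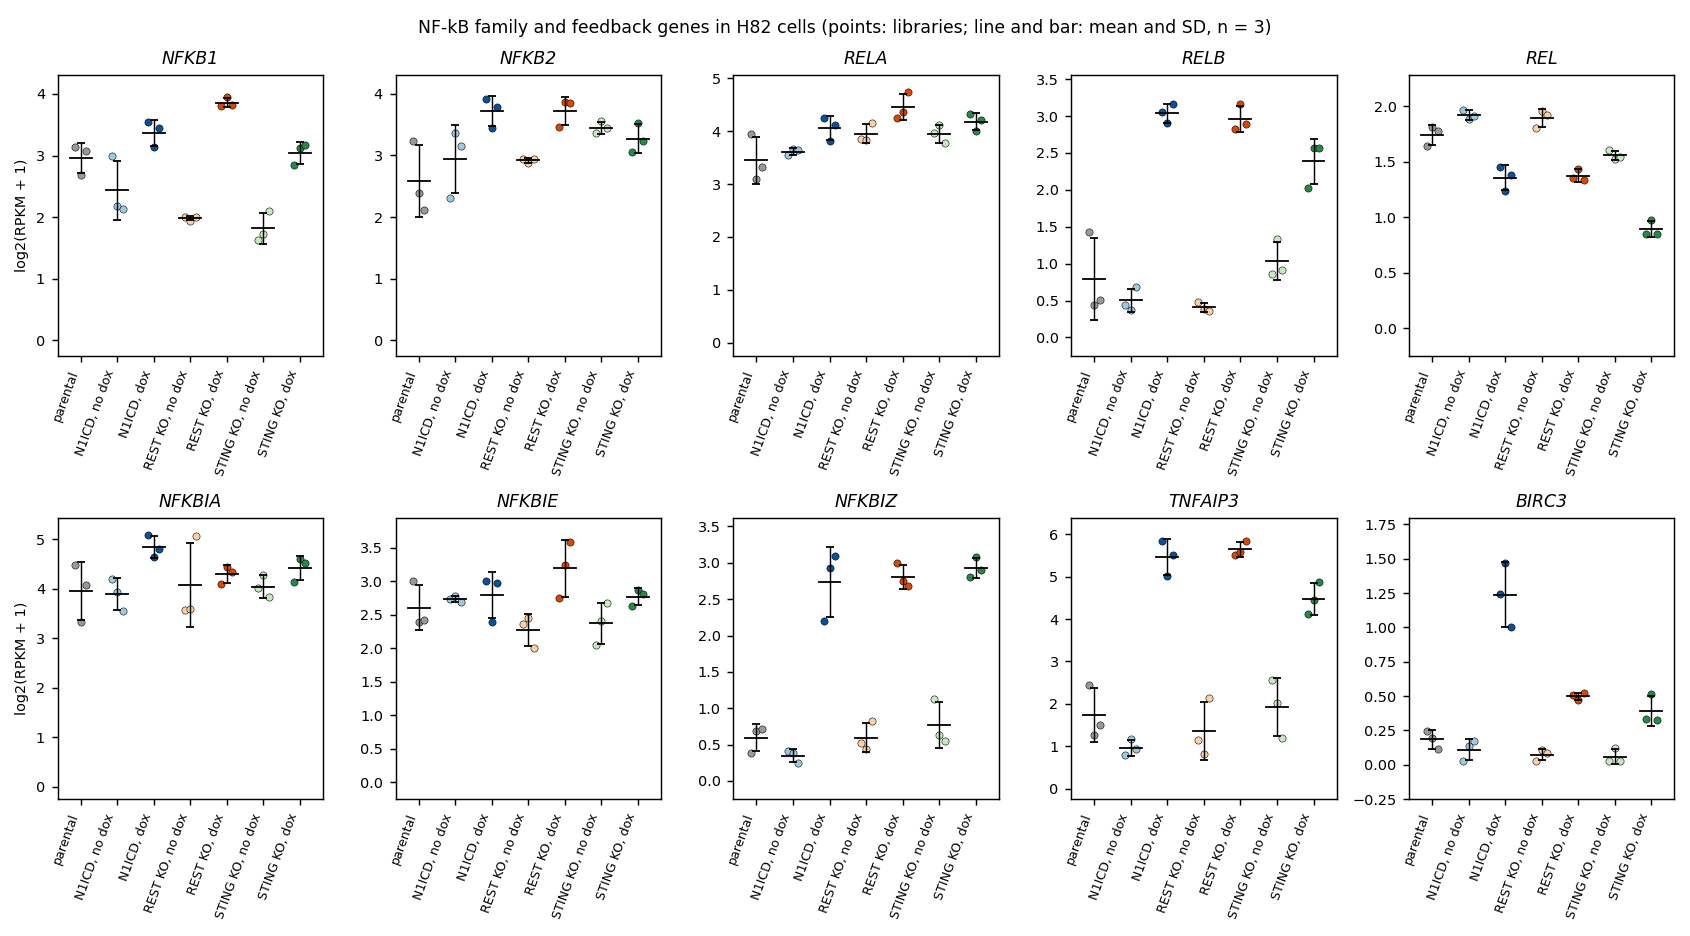
Level of each gene (panels, log2(RPKM + 1)) in the 21 H82 libraries, in 7 groups; points are libraries, and the line and bar are the mean and SD (n = 3). TNFAIP3, RELB and NFKBIZ are high in the 3 doxycycline groups and low elsewhere, and the BIRC3 mean is 1.24 ± 0.24 in the intact induced cells against 0.50 ± 0.03 in REST KO and 0.39 ± 0.11 in STING KO cells.

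**Figure D4:**
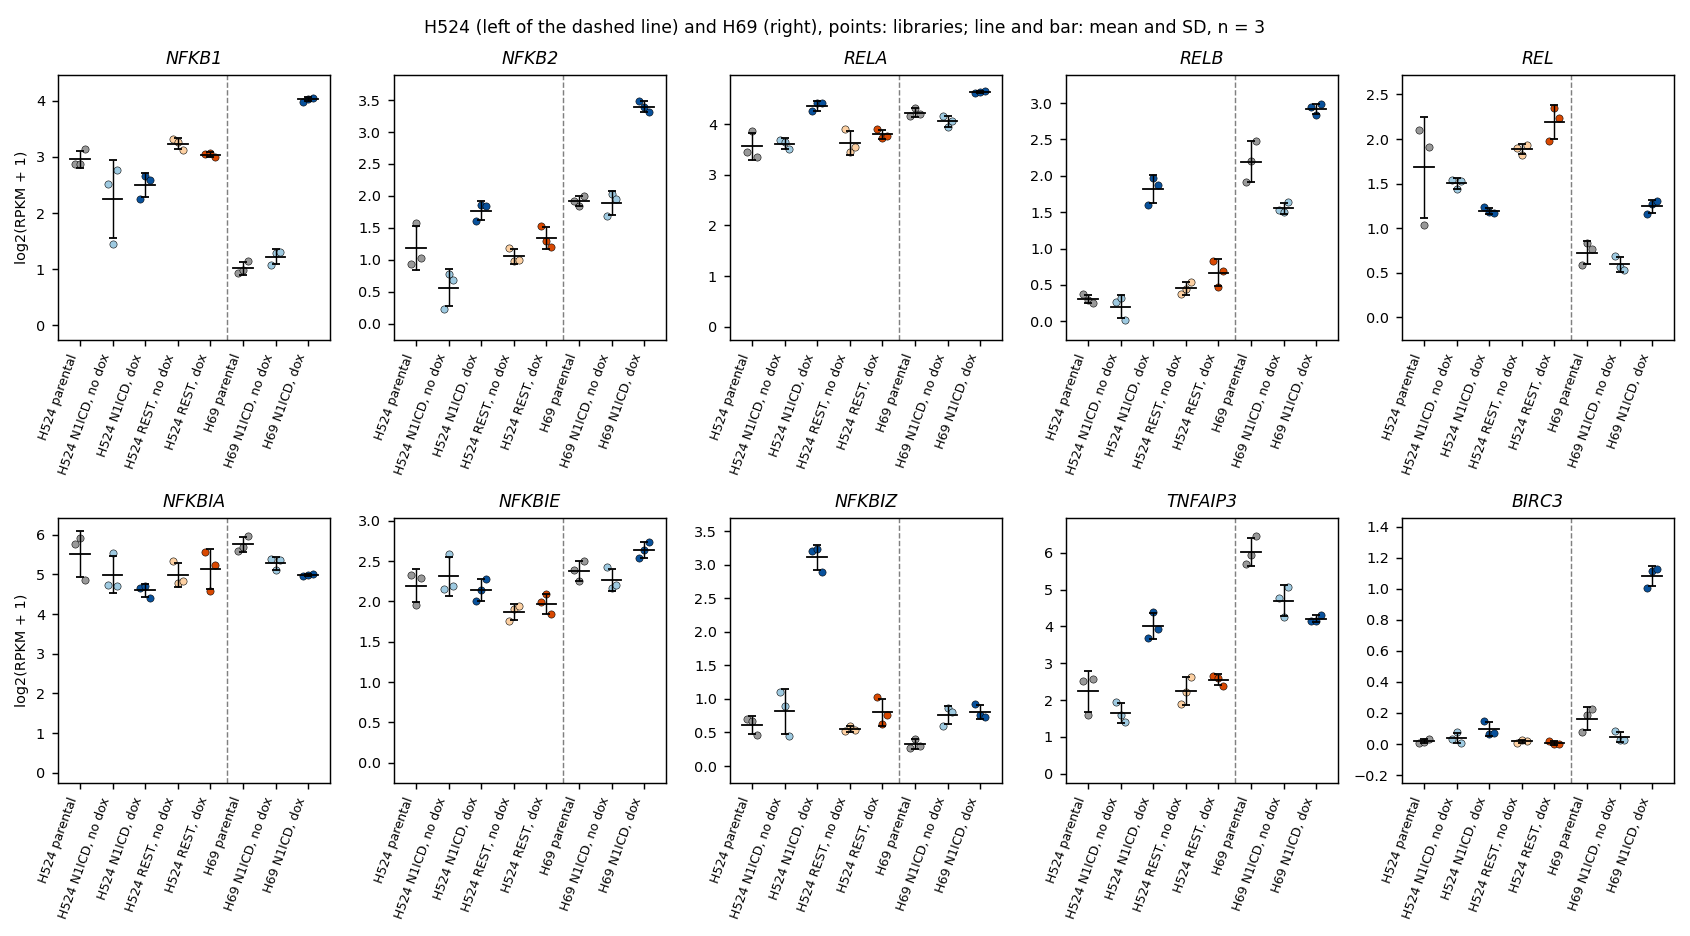
Level of each gene (panels, log2(RPKM + 1)) in the 15 H524 libraries (left of the dashed line) and the 9 H69 libraries (right); points are libraries, and the line and bar are the mean and SD (n = 3). RELB and NFKB2 rise with doxycycline in both lines, NFKB1 in H69 to 4.02 ± 0.04, and TNFAIP3 is highest in parental H69 at 6.02 ± 0.39.

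The GSI comparisons set TAS1440 alone beside TAS1440 with cleavage of Notch receptors blocked. The study states that GSIs can act on other membrane proteins as well, and no group received the GSI alone. Notch cleavage and other effects of the GSI therefore cannot be told apart. In COR-L88, 8 of the 10 members stood higher in cells given TAS1440 only than in those also given the GSI, and 0 stood lower, beside 46.7% of genes passing and 27.7% higher. Of all genes called, 59.3% were higher as deposited and 44.0% with median-centred libraries. With GSI present, 3 of 10 members were called higher than with DMSO, beside 24.5% of genes passing and 13.1% higher. These comparisons share the DMSO or the TAS1440 libraries. TNFAIP3 read 2.06, 2.44 and 2.04 with the GSI, between the DMSO and the TAS1440 values (log2 difference 2.72, SE 0.53, adjusted p = 0.001, TAS1440 alone minus with GSI). BIRC3 read 0.29, 0.25 and 0.18 (log2 difference 1.28, SE 0.21, adjusted p = 0.000286). NFKB2 read 1.06, 1.07 and 0.92 (log2 difference 1.26, SE 0.18, adjusted p = 9.21e-05). RELB read 1.03, 0.85 and 0.85 (log2 difference 0.97, SE 0.22, adjusted p = 0.00314). For every member except REL no library with GSI reached a library with TAS1440 alone, including NFKB1, which did not pass. The share of all genes without such overlap is not given here. NFKBIA read 4.57, 4.61 and 4.49 (log2 difference 0.81, SE 0.11, adjusted p = 4.47e-05). NFKBIZ read 2.28, 2.32 and 1.53 (log2 difference 0.95, SE 0.31, adjusted p = 0.0233), and its call was lost without library 13 or 18 (adjusted p up to 0.11). RELA differed by 0.34 (adjusted p = 0.00788) and NFKBIE by 0.50 (adjusted p = 0.0166), both calls lost with median-centred libraries (adjusted p = 0.052 and up to 0.0964). NFKBIE was also lost without library 13, 17 or 18 (adjusted p up to 0.0589).

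NFKB1, REL and NFKBIA were the 3 members called higher with TAS1440 plus GSI than with DMSO in COR-L88. TNFAIP3, RELB, NFKB2 and BIRC3 differed from DMSO by 0.76, 0.42, 0.22 and 0.13, which did not pass, and BIRC3 was near the limit of detection in both groups. TNFAIP3 and RELB did pass when only the compared groups were modeled (adjusted p = 0.0053 and 0.0219), and RELB with a pseudocount of 0.1 (adjusted p = 0.0473). NFKB1 read 3.31, 3.22 and 3.32 with TAS1440 plus GSI, above DMSO (log2 difference 0.97, SE 0.12, adjusted p = 4.47e-05), and TAS1440 alone was higher by 0.29, with a 95% interval of 0.03 to 0.55, which did not pass. REL read 1.37, 1.44 and 1.53 (log2 difference 0.37, SE 0.13, adjusted p = 0.0497 against DMSO), but this call was lost without any of the 6 libraries in turn (adjusted p up to 0.151) and in 3 other settings. NFKBIA also remained above DMSO (log2 difference 0.39, SE 0.11, adjusted p = 0.0155), a call lost without library 12, 16 or 17 (adjusted p up to 0.0621). NOTCH1 RNA itself was 6.71 to 6.75 with the GSI and 1.99 to 2.79 without it, and its part in these differences was not tested. The mean of the neuroendocrine markers was 4.36 to 4.44 with the GSI, between 6.01 to 6.07 with DMSO and 3.35 to 3.47 with TAS1440 alone.

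In KP1, 5 of the 5 members tested stood higher after TAS1440 only than after TAS1440 and the GSI together, beside 32.0% of genes passing and 15.7% higher. With GSI against DMSO, 0 of 5 passed in limma, beside 1.97% of genes passing, and Nfkb2 and Nfkbia had an unadjusted p under 0.05. Nfkb2 read 0.51, 0.73 and 0.48 with the GSI (log2 difference 2.95, SE 0.22, adjusted p = 1.5e-05, TAS1440 alone minus with GSI). Its difference from DMSO was -0.51 (adjusted p = 0.394). Nfkbia read 2.43, 2.68 and 2.87, between the other groups (log2 difference 1.29, SE 0.19, adjusted p = 0.000829). Against DMSO it differed by 0.75, with a 95% interval of 0.31 to 1.18. Nfkbie read 0.30, 0.46 and 0.52 (log2 difference 0.99, SE 0.11, adjusted p = 0.00011). Rela read 2.55, 2.70 and 2.63 (log2 difference 0.85, SE 0.22, adjusted p = 0.0174), a call lost without library 4, 5 or 7 (adjusted p up to 0.0609). Nfkbiz read 0.67, 0.39 and 0.41 (log2 difference 0.63, SE 0.19, adjusted p = 0.0321), a call lost without library 4, 5, 8 or 9 (adjusted p up to 0.104) and with no filter (adjusted p = 0.063). With no filter on level, Nfkb1, Relb, Rel and Birc3 also passed in limma in each comparison of TAS1440 alone, and Tnfaip3 did not. Against DMSO, Relb differed by 1.03 (adjusted p = 0.000367) and Rel by 0.82 (adjusted p = 0.0026). The share of all genes passing without the filter is not given here. The mean of the 3 leukocyte genes listed in KP1 moved with TAS1440, at 0.70 to 1.61 against 0.00 to 0.00 with DMSO, through Cd74 and Cd14, while Ptprc was at most 0.002.

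**Figure D5:**
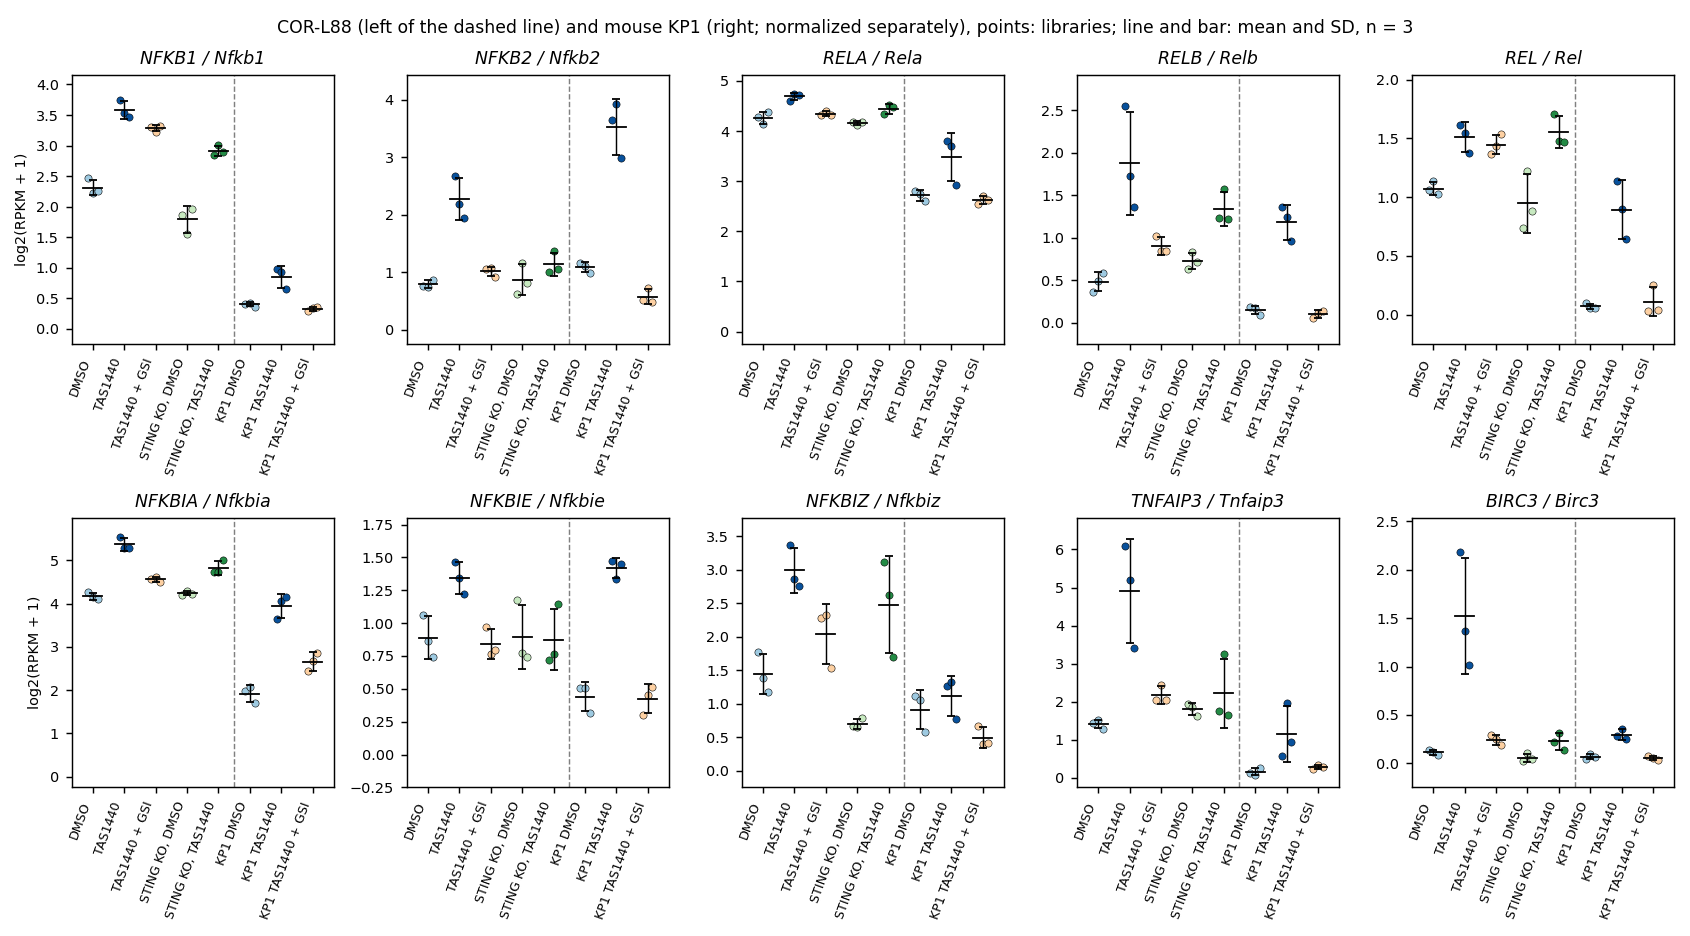
Level of each gene (panels, log2(RPKM + 1)) in the 15 COR-L88 libraries (left of the dashed line) and of its mouse ortholog in the 9 KP1 libraries (right, normalized separately, so levels do not compare across the line); points are libraries, and the line and bar are the mean and SD (n = 3). TNFAIP3 and BIRC3 are high in the TAS1440 group of COR-L88, where the means are 4.90 ± 1.37 and 1.52 ± 0.60, and lower with GSI, at 2.18 ± 0.22 and 0.24 ± 0.05.

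REST is a target of Notch signaling and was itself overexpressed in H524. Doxycycline in the REST line changed 0 of the 9 members tested in limma, 0 of them at an unadjusted p under 0.05, beside 2.83% of genes passing. TNFAIP3 read 1.88, 2.22 and 2.64 without and 2.67, 2.60 and 2.39 with doxycycline, a difference of 0.31 with a 95% interval of -0.30 to 0.91. The interval for RELB was -0.09 to 0.51 and for NFKBIZ -0.13 to 0.62. Between the induced lines, 4 members were higher with N1ICD than with REST and 1 was lower, beside 42.8% of genes passing and 19.9% higher: NFKBIZ by 2.31 (SE 0.17, adjusted p = 1.99e-07), TNFAIP3 by 1.46 (adjusted p = 0.000911), RELB by 1.15 (adjusted p = 1.89e-05) and RELA by 0.56 (adjusted p = 0.015). The RELA call was lost without library 26 or 27 (adjusted p up to 0.054). REL was the lower one (95% interval of the difference -1.47 to -0.53, adjusted p = 0.00228), at 1.23, 1.18 and 1.17 with N1ICD and 1.98, 2.35 and 2.24 with REST, which was the highest REL group mean of the 20 human groups. In the test of the difference between the N1ICD and REST responses, 4 of 9 members passed, all toward a larger rise with N1ICD, beside 19.1% of genes passing and 11.7% in that direction. They were NFKB2, RELB, NFKBIZ and TNFAIP3. The NFKB2 value of 0.92 (adjusted p = 0.0295) was lost without library 22, 26, 27, 34, 36, 38 or 39 (adjusted p up to 0.0763) and with median-centred libraries (adjusted p = 0.0519).

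In the H82 cells labelled REST KO, 8 of 10 members rose with N1ICD and 1 fell, beside 52.2% of genes passing and 26.0% higher. TNFAIP3 rose from 1.15, 0.82 and 2.13 to 5.52, 5.57 and 5.85 (log2 difference 4.28, SE 0.37, adjusted p = 2.39e-08). RELB rose from 0.47, 0.39 and 0.36 to 2.82, 3.16 and 2.89 (log2 difference 2.55, SE 0.22, adjusted p = 2.77e-08). NFKBIZ rose by 2.21 (adjusted p = 6.93e-08) and REL fell by 0.52 (adjusted p = 0.000714). NFKBIE, which did not pass in intact cells, rose from 2.36, 2.45 and 2.00 to 2.75, 3.24 and 3.59 (log2 difference 0.92, SE 0.23, adjusted p = 0.00279). NFKB2 rose by 0.80 (adjusted p = 0.0189), a call lost without library 29, 32 or 33 (adjusted p up to 0.0625), and RELA by 0.50 (adjusted p = 0.0448), lost without library 28, 29, 32 or 33 (adjusted p up to 0.18) and with median-centring (adjusted p = 0.0853). NFKBIA read 3.56, 3.60 and 5.07 and 4.10, 4.44 and 4.34, a difference of 0.22 that did not pass, and without uninduced library 30, its high value, it was 0.71 (adjusted p = 0.0446). NFKB1 rose by 1.87 in REST KO cells, from 2.01, 1.95 and 2.01 to 3.81, 3.94 and 3.83, and by 0.94 in intact cells. The difference of 0.94 passed (adjusted p = 0.0358), but not without any of 9 of the 12 libraries, among them 4, 8 and 9 of the intact cells and all 6 of the REST KO cells (adjusted p up to 0.0823). BIRC3 rose from 0.03, 0.11 and 0.09 to 0.51, 0.47 and 0.52 (log2 difference 0.43, SE 0.12, adjusted p = 0.00536), lost with quantile normalization (adjusted p = 0.697), and by less than in intact cells (difference -0.70, adjusted p = 0.00649), lost with a pseudocount of 0.1 (adjusted p = 0.0867). In all, 2 of 10 members passed that test, beside 16.6% of genes.

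With doxycycline, BIRC3 was also the only member that differed between REST KO and intact cells, with a difference of -0.74 (adjusted p = 8.74e-05), or 1 of 10 lower beside 38.4% of genes passing and 20.7% lower. Without doxycycline 0 of 10 differed in limma, beside 15.2% of genes passing, and NFKB1 alone had an unadjusted p under 0.05. The comparisons within the REST KO and intact cells share libraries with these. NOTCH1 RNA with doxycycline was higher in REST KO than in intact cells by 4.69 (adjusted p = 2.06e-07) and REST lower (difference -1.05), and the part of the vector's level in these results was not tested.

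STING KO asks how far the NF-kB genes depended on STING. In COR-L88 with TAS1440, 6 of 10 members were lower in STING KO than in intact cells and 0 were higher, beside 27.1% of genes passing and 18.8% lower. Of all genes called, 30.7% were higher in the KO as deposited and 55.6% with median-centred libraries. TNFAIP3 read 1.75, 3.26 and 1.65 in the KO against 6.10, 5.20 and 3.41 in intact cells (log2 difference -2.68, SE 0.53, adjusted p = 0.00293). KO library 44 lay just below the lowest intact library, and the call was lost when only the compared groups were modeled (adjusted p = 0.0503). BIRC3 read 0.22, 0.31 and 0.14 against 2.18, 1.37 and 1.01 (log2 difference -1.30, SE 0.21, adjusted p = 0.000819). NFKB2 read 1.00, 1.37 and 1.05 against 2.68, 2.19 and 1.95 (log2 difference -1.14, SE 0.18, adjusted p = 0.000681). NFKB1 was lower (difference -0.66, adjusted p = 0.00161), as was NFKBIA (-0.55, adjusted p = 0.00227), again with no overlap. NFKBIE was lower (difference -0.47, adjusted p = 0.0383), a call lost without library 13, 14, 43 or 44 (adjusted p up to 0.143) and in 3 other settings (adjusted p up to 0.145). NFKBIZ was not among them: it read 3.12, 2.62 and 1.70 in the KO and 3.37, 2.86 and 2.75 in intact cells (difference -0.51, 95% interval -1.19 to 0.16).

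Within the STING KO COR-L88 cells, TAS1440 raised 6 of 10 members and lowered 0, beside 43.3% of genes passing and 22.4% higher. NFKBIZ rose from 0.67, 0.65 and 0.79 to 3.12, 2.62 and 1.70 (log2 difference 1.78, SE 0.31, adjusted p = 0.000431) and NFKB1 from 1.87, 1.55 and 1.96 to 2.84, 3.00 and 2.90 (log2 difference 1.12, SE 0.12, adjusted p = 6.25e-06). REL rose by 0.60 (adjusted p = 0.00191) and NFKBIA by 0.58 (adjusted p = 0.000561). RELA rose by 0.29 (adjusted p = 0.0214), a call lost without library 44 or 45 (adjusted p up to 0.0769), and RELB by 0.61 (adjusted p = 0.0402), a call lost without any of the 6 libraries (adjusted p up to 0.145). TNFAIP3 read 1.94, 1.87 and 1.63 with DMSO and 1.75, 3.26 and 1.65 with TAS1440, a difference of 0.41 (95% interval -0.74 to 1.56), and BIRC3 and NFKB2 differed by 0.17 and 0.27, none of which passed. The test of the difference from the intact response passed for 4 of 10 members, all toward a smaller rise in the KO, beside 7.93% of genes passing and 6.01% in that direction: NFKB2, NFKBIA, TNFAIP3 and BIRC3. Of all genes called in that test, 24.2% were positive as deposited and 43.8% with quantile normalization. The NFKB2 value was -1.21 (adjusted p = 0.0139). The other 3 calls were each lost when only the compared groups were modeled (adjusted p up to 0.058). TNFAIP3 (-3.08, adjusted p = 0.0259) was lost without library 11, 12, 14, 40, 43 or 45 (adjusted p up to 0.0719), BIRC3 (-1.24, adjusted p = 0.0244) without 11, 42, 43 or 45 (adjusted p up to 0.0586) and NFKBIA (-0.62, adjusted p = 0.0245) without 11, 12, 42 or 43 (adjusted p up to 0.0675). With DMSO, NFKB1 was the 1 member of 10 that was lower in the KO (log2 difference -0.52, SE 0.12, adjusted p = 0.0267), beside 5.41% of genes passing and 3.13% lower, and it was lost without library 10, 11 or 40 (adjusted p up to 0.103) and with quantile normalization. Of all genes called with DMSO, 42.1% were higher as deposited and 57.0% with median-centred libraries. NOTCH1 RNA was higher in the KO with TAS1440 by 1.76 (adjusted p = 0.00524) and the neuroendocrine marker mean was 3.76 to 4.00 against 3.35 to 3.47, and their part in these differences was not tested.

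In H82, 5 of 10 members rose and 1 fell with doxycycline in the cells labelled STING KO, beside 37.8% of genes passing and 20.8% higher. Of all genes called, 55.2% were higher as deposited and 44.8% with quantile normalization. TNFAIP3 rose from 2.55, 2.01 and 1.20 to 4.12, 4.44 and 4.88 (log2 difference 2.56, SE 0.37, adjusted p = 2.66e-05), RELB from 0.86, 1.33 and 0.91 to 2.03, 2.56 and 2.57 (log2 difference 1.35, SE 0.22, adjusted p = 0.000109) and NFKBIZ from 1.13, 0.63 and 0.55 to 2.81, 3.08 and 2.89 (log2 difference 2.16, SE 0.21, adjusted p = 1.97e-07). These 3 genes were thus induced without overlap in the labelled KO. NFKB1 rose by 1.23 (adjusted p = 0.00014) and REL fell by 0.67 (adjusted p = 0.000113). BIRC3 rose from 0.03, 0.12 and 0.03 to 0.34, 0.52 and 0.33 (log2 difference 0.33, SE 0.12, adjusted p = 0.0325), a call lost without library 55, 57 or 59 (adjusted p up to 0.114) and with quantile normalization or median-centring (adjusted p up to 0.405). NFKB2 read 3.36, 3.56 and 3.44 and 3.05, 3.52 and 3.23 (difference -0.18, 95% interval -0.75 to 0.38).

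With doxycycline, 4 of 10 members were lower in the labelled STING KO than in intact H82 cells and 0 were higher, beside 39.2% of genes passing and 23.2% lower. BIRC3 was lower (difference -0.85, adjusted p = 3.68e-05), as was REL (-0.47, adjusted p = 0.00305). RELB was lower (difference -0.65, adjusted p = 0.0278), lost without library 7, 9 or 58 (adjusted p up to 0.132) and with a pseudocount of 0.1. TNFAIP3 was lower (difference -0.98, adjusted p = 0.0449), lost without library 7, 9, 58 or 59 (adjusted p up to 0.153) and in 4 other settings (adjusted p up to 0.122). The rise with doxycycline was smaller in the labelled KO for 3 of 10 members, beside 9.26% of genes passing and 4.26% in that direction: BIRC3 (-0.80, adjusted p = 0.00525, lost with a pseudocount of 0.1 at an adjusted p of 0.0671), RELB (-1.19, adjusted p = 0.0252, lost without library 5, 9, 56 or 58 at an adjusted p of up to 0.075) and TNFAIP3 (-1.93, adjusted p = 0.0272, lost without library 6, 7, 55, 56, 58 or 59 at an adjusted p of up to 0.0836). Without doxycycline, NFKB1 and REL were lower in the labelled KO, with differences of -0.62 (adjusted p = 0.0287) and -0.36 (adjusted p = 0.0164), or 2 of 10 beside 34.6% of genes passing and 21.6% lower. Both calls were lost with median-centred libraries and when only the compared groups were modeled (adjusted p up to 0.143 and 0.0625), NFKB1 also without library 4, 55 or 56 (adjusted p up to 0.157) and REL without 56 (adjusted p = 0.0573). Before induction the labelled KO differed from intact cells by 0.53 for RELB (0.86, 1.33 and 0.91 in the KO) and by 0.96 for TNFAIP3 (2.55, 2.01 and 1.20). These differences did not pass (adjusted p = 0.0733 and 0.0541), but did with a pseudocount of 0.1 (0.0306 and 0.0349) and with median-centred libraries (0.0365 and 0.0372). Induced NOTCH1 RNA was higher in the labelled KO by 2.10 (adjusted p = 0.00113), TMEM173 by 0.50 (adjusted p = 0.036) and REST lower (difference -0.60, adjusted p = 0.0385), and their part in these results was not tested.

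Uninduced vector lines were compared with parental cells as a check of the background. In H82, 0 of 10 members differed in limma, beside 13.7% of genes passing, and NFKB1 had an unadjusted p under 0.05. Without uninduced library 4, NFKB1 was lower than in parental cells by 0.81 (adjusted p = 0.00347). The REST line of H524 had 0 of 9 differing and 0 at an unadjusted p under 0.05, beside 0.300% of genes passing. In the N1ICD line of H524, NFKB2 was the 1 member of 9 that was lower (log2 difference -0.62, SE 0.19, adjusted p = 0.0303), beside 26.6% of genes passing and 15.9% lower, and it was lost without library 20 or 22 (adjusted p up to 0.114) and when only the compared groups were modeled. In H69 3 of 9 were lower than in parental cells and 0 higher, beside 27.4% of genes passing and 13.6% lower: TNFAIP3 (difference -1.32, adjusted p = 0.00416), RELB (-0.64, adjusted p = 0.0081) and NFKBIA (-0.47, adjusted p = 0.0153), with the NFKBIA call lost when only the compared groups were modeled (adjusted p = 0.0515). The H69 vector cells thus started, before induction, from a lower TNFAIP3 level than parental cells.

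Over the 20 human groups, ordered by mean, most neighbors overlapped: the number of adjacent pairs whose libraries overlapped was 15 of 19 for NFKB1 and for REL, and 17 to 19 of 19 for the other members. The top of the order differed by gene. RELB was highest in induced H82 (3.04 ± 0.13), followed within the spread by induced REST KO H82 (2.96 ± 0.18) and induced H69 (2.92 ± 0.07). TNFAIP3 was highest in parental H69 (6.02 ± 0.39) and lowest in uninduced H82 (0.96 ± 0.18). NFKB1 was highest in induced H69 (4.02 ± 0.04), without overlap with the next group, induced REST KO H82 (3.86 ± 0.08), and lowest in parental H69 (1.02 ± 0.11). NFKBIA was highest in parental H69 (5.75 ± 0.20) and lowest in uninduced H82 (3.89 ± 0.33). NFKBIE was low in all COR-L88 groups, whose libraries lay at or below 1.46. BIRC3 was highest in COR-L88 with TAS1440 (1.52 ± 0.60), and its 4 lowest groups were all H524 groups.

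Likeness across groups was measured as Pearson's r over the 20 human group means, each gene centred on the mean of its line's groups, among 13850 genes. These are descriptions, and groups of a line share their line. Among members, RELB was most like NFKBIZ (r = 0.89) and TNFAIP3 (r = 0.89) and then RELA (r = 0.83), while REL ran opposite to NFKBIZ (r = -0.45), TNFAIP3 (r = -0.42) and RELB (r = -0.34). Of all genes, those nearest to RELB were GBP1 (r = 0.96), an interferon-induced GTPase, NTN4 and PLEKHA2. Those nearest to TNFAIP3 were NMRK2 (r = 0.94), CEACAM1 and MYO1E. Those nearest to NFKBIZ were WTIP (r = 0.94), SOCS3, a cytokine-induced inhibitor of JAK-STAT signaling, and IFIT2, an interferon-stimulated gene. NFKB1 was nearest to MAP7D3 (r = 0.95), AKAP12 and ANTXR1, NFKB2 to RHOC (r = 0.93), UBE2A and ITPRIPL2, and RELA to ORAI3 (r = 0.94), ATXN1L and LMO7. REL was nearest to HS2ST1 (r = 0.93), UAP1 and DBT, NFKBIA to OSBPL10 (r = 0.88), TMEM255A and GPR37, and NFKBIE to PTGES (r = 0.92), SLC35C1 and HMOX1. BIRC3 was too low in most groups to be included.

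The 64 further human pathway genes and 62 mouse ones (receptors, ligands, adaptors, kinases, inhibitors and targets) were counted in the same way, and those that passed were more often higher than lower with N1ICD and TAS1440. The limit of the level filter holds for these counts too. Genes silent without induction or treatment could be tested only through the induced or treated libraries, which favours higher calls. How many pathway genes passed only in this way was not counted. In H82, 29 of the 48 tested rose and 2 fell, beside 50.3% of all genes passing and 25.4% higher. TNFRSF12A, the TWEAK receptor, rose by 4.73 (adjusted p = 1.94e-07), the double-stranded RNA receptor TLR3 by 4.40 (adjusted p = 2.28e-08) and the chemokine CCL2 by 7.69 (adjusted p = 1.37e-11), while CD40 fell by 1.57 (adjusted p = 0.0008). In H524, 20 of 45 rose and 2 fell, beside 32.3% passing and 17.9% higher, with the tumor necrosis factor receptor TNFRSF1A at 5.82 (adjusted p = 6.31e-11) and the chemokine CXCL2 at 5.72 (adjusted p = 2.35e-08). In H69, 29 of 48 rose and 11 fell, beside 82.3% passing and 44.1% higher, so the share called was close to that of all genes. TLR3 rose there by 4.53 (adjusted p = 6.09e-11), while the lipopolysaccharide receptor TLR4 fell by 4.08 (adjusted p = 2.58e-10) and the lymphotoxin gene LTB fell by 2.12 (adjusted p = 0.000389). In COR-L88, 28 of 47 rose and 2 fell with TAS1440, beside 57.7% passing and 31.1% higher, with the adhesion molecule ICAM1 at 5.12 (adjusted p = 2.85e-08) and TNFRSF12A at 4.57 (adjusted p = 1.76e-07). In KP1, 15 of 35 rose and 3 fell, beside 36.7% passing and 18.2% higher, with Tnfrsf12a at 4.99 (adjusted p = 2.38e-06) and the target Ier3 at 4.60 (adjusted p = 2.51e-05).

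BCL3, an atypical IkB protein that binds p50 and p52, passed in all 5 lines: it rose by 1.93 in H82, 4.65 in H524, 2.39 in H69 and 4.11 in COR-L88, and Bcl3 by 2.43 in KP1 (adjusted p = 0.000887, 8.36e-06, 2.46e-05, 9.68e-07 and 9.95e-05). TAB1, a partner of the kinase MAP3K7, had differences of -0.48 in H82, -0.36 in H69 and -0.36 in COR-L88 (adjusted p = 0.0129, 0.00261 and 0.0401). In the other comparisons, 30 of 47 pathway genes stood higher in COR-L88 without the GSI than with it and 1 was lower, beside 46.7% of all genes passing and 27.7% higher. In COR-L88 with TAS1440, 24 of 47 were lower in STING KO cells and 0 higher, beside 27.1% of all genes passing and 18.8% lower. The share of all called genes that were higher in this comparison moved from 30.7% to 55.6% with median-centred libraries. Among the lower ones were BCL3 (difference -1.97, adjusted p = 0.00242) and TLR3 (-1.92, adjusted p = 0.00377). H82 differed. With doxycycline, 12 of 48 were lower in the labelled STING KO than in intact cells and 5 higher, beside 39.2% of all genes passing and 23.2% lower. Without doxycycline 3 were lower and 13 higher, beside 34.6% of all genes passing and 21.6% lower. The REST vector of H524 moved 1 of 45, beside 2.83% of all genes passing: MAP3K14, which rose by 3.39 (adjusted p = 0.00116).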

How the data were processed

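Polyadenylated RNA was sequenced paired-end after a stranded library preparation. Per the study's methods and the submitters' processing notes, cutadapt removed adapters, STAR mapped the reads (hg19, or mm10 for KP1) and RSEM quantified genes, and the authors deposited TMM-scaled (edgeR) log2(RPKM + 1) values, 1 table of 60 human libraries and 1 of 9 mouse libraries. The deposited log2 values carry no counts, so depth is not given. Summed RPKM had a median of 1440076 in the human and 136744 in the mouse table, and levels were not compared between them. Libraries were grouped by the labels.

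Each line was fitted with limma 3.58.1 in R 4.3.3 (1 mean per group, moderated variances with a trend, two-sided, Benjamini-Hochberg over all genes tested), for genes at 1 or more in at least 3 libraries of the line: 13903 genes in H82, 13648 in H524, 13580 in H69, 13134 in COR-L88 and 8260 in KP1. A call is an adjusted p under 0.05. There were 24 contrasts and 4 tests of differences between responses. The fit was tested on simulated data. RPKM was recovered as 2 to the power of the deposited value, minus 1. Alternatives were no filter, a pseudocount of 0.1, quantile normalization, median-centring, no variance trend, only the compared groups, a fold threshold and leaving out each library. Promoters came from RefSeq (GRCh38.p14), with GRCh37 positions from an exact match to the genome, and gene positions from GENCODE. The members and lists were chosen with earlier results of these data known. All members were named, and of other pathway genes the called ones with the largest differences of a role. Figures used matplotlib 3.10.9. Listed genes with no matching row (CXCL8, OTULIN and human PECAM1) were not used here. The neuroendocrine and the leukocyte marker means each leave out 1 listed gene that is not reported here.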

Additional observations from a re-analysis of the deposited data

Results flagged for a closer look

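These members responded differently in 2 settings of the same line, by a test of the difference itself (limma, adjusted p under 0.05). The value is the first response minus the second. In H82, the response to N1ICD in REST KO minus intact cells was 0.94 for NFKB1 (adjusted p = 0.0358) and -0.70 for BIRC3 (0.00649). The response in cells labelled STING KO minus intact cells was -1.19 for RELB (0.0252), -1.93 for TNFAIP3 (0.0272) and -0.80 for BIRC3 (0.00525). In H524, the response to N1ICD minus that to REST was 0.92 for NFKB2 (0.0295), 1.40 for RELB (0.000181), 2.04 for NFKBIZ (4.89e-05) and 2.06 for TNFAIP3 (0.0022). In COR-L88, the response to TAS1440 in STING KO minus intact cells was -1.21 for NFKB2 (0.0139), -0.62 for NFKBIA (0.0245), -3.08 for TNFAIP3 (0.0259) and -1.24 for BIRC3 (0.0244). TNFAIP3 and BIRC3 had smaller responses in the cells labelled STING KO of both lines. The TNFAIP3 call was lost without any 1 of 6 libraries in each line. The BIRC3 call was lost without any 1 of 4 libraries in COR-L88 and with a pseudocount of 0.1 in H82. In H82, TNFAIP3 differed between KO and intact cells by 0.96 before induction, which did not pass, and by -0.98 with doxycycline. Losing any 1 of 9 libraries removed the NFKB1 call in H82, and any 1 of 4 the RELB call there. Any 1 of 7 did so for NFKB2 in H524, and any 1 of 4 for NFKBIA in COR-L88. With a pseudocount of 0.1 the REST KO call of BIRC3 was lost. Of all genes, 16.6% passed the REST KO test in H82, close to the 2 of 10 members, and 19.1% the H524 test. The STING KO test was passed by 9.26% in H82 and 7.93% in COR-L88. In the cells labelled STING KO, NOTCH1 RNA was also higher under induction or treatment than in intact cells. The difference was 2.10 in H82 and 1.76 in COR-L88. The part of that level was not tested.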

How the results depend on the processing

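No paired analysis was possible because the library numbers are unique within a table and pair nothing between groups. Of 108 member calls, 70 were kept in every setting and without any 1 library, 30 were lost in at least 1 setting, 31 without at least 1 library, and 0 changed direction. Median-centring lost 14, quantile normalization 11, only the compared groups 15, a pseudocount of 0.1 lost 5, no filter 3 and no variance trend 0. Quantile normalization shifted the median difference of all genes by -0.10 in H524 with N1ICD, -0.15 in COR-L88 with TAS1440 and -0.13 against TAS1440 plus GSI. Each library is 1 of 3, and low members such as BIRC3 sit near the limit of detection. The cause of the changes below was not tested. The counts below stand without the share of all genes at the same setting. They show only how the member calls depend on the processing.

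Requiring a difference of at least 1 as well left 4 members in H82 with N1ICD, 4 in its REST KO, 4 in H69, 2 in KP1 with TAS1440 against DMSO and 2 against GSI, 3 in COR-L88 for TAS1440 against GSI, 2 for TAS1440 in STING KO cells, 3 for STING KO against intact cells with TAS1440, 3 in H524 for N1ICD against REST, and 1 in H69 without doxycycline against parental cells. It left 0 in H82 for either KO against intact cells with doxycycline, for STING KO without doxycycline and for the REST KO difference in response, 0 in H524 without doxycycline against parental cells, and 0 in COR-L88 for GSI against DMSO and STING KO with DMSO. With a pseudocount of 0.1 the count was 2 for H82 STING KO against intact cells with doxycycline, 5 without, and 1 for the REST KO difference in response. With only the compared groups it was 0 for H82 STING KO without doxycycline, 1 for the REST KO difference in response, 0 for H524 without doxycycline against parental cells, 5 for COR-L88 GSI against DMSO, 0 for STING KO with DMSO, 1 for the COR-L88 difference in response and 1 for KP1 GSI against DMSO. Quantile normalization left 0 for COR-L88 STING KO with DMSO. With no filter 8 mouse members passed for TAS1440 against DMSO and 8 against GSI.

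Without 1 library, counts ranged from 2 to 4 for H82 STING KO against intact cells with doxycycline, 0 to 3 without, 0 to 1 for H82 without doxycycline against parental cells, 1 to 2 and 1 to 3 for the REST KO and STING KO differences in response, 0 to 2 for H524 and 3 to 5 for H69 without doxycycline against parental cells, 1 to 2 for COR-L88 GSI against DMSO, 0 to 1 for STING KO with DMSO, 1 to 5 for the COR-L88 difference in response and 3 to 5 for KP1 TAS1440 against GSI.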

Other observations

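Within the TAS1440 group of COR-L88, 8 of the 10 members ranked the 3 libraries alike, with library 13 highest and library 15 lowest, all but RELA and NFKBIA. The spread was wide for TNFAIP3 (6.10, 5.20 and 3.41 in libraries 13, 14 and 15), RELB (2.55, 1.72 and 1.37), NFKB2 (2.68, 2.19 and 1.95) and BIRC3 (2.18, 1.37 and 1.01). In the same group of KP1, library 6 was lowest for Nfkb1 (0.98, 0.93 and 0.65 in libraries 4, 5 and 6), Nfkb2, Rela, Relb and Rel, but highest for Nfkbia (3.64, 4.06 and 4.15). In induced H82, library 8 was lowest for 8 of the 10 members. In COR-L88 cells labelled STING KO and treated with TAS1440, library 44 stood above the other two for TNFAIP3 (1.75, 3.26 and 1.65 in libraries 43, 44 and 45) and for RELB (1.23, 1.57 and 1.22). In uninduced H524, library 23 was low for NFKB1 (2.51, 1.46 and 2.76 in libraries 22, 23 and 24) and high for TMEM173 (0.45, 3.25 and 1.43). These groupings were noticed after the values were seen, and no cause was tested.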
